A study of Homo sapiens
Mus musculus with 8 samples.

Results

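The 10 genes described here encode transcription factors of the B lineage: Pax5, Ebf1, Pou2af1, Spib, Spi1, Irf4, Irf8, Bach2, Bcl6 and Ikzf3. They were picked by name out of 27998 mouse genes, and their mRNA was compared between 2 mouse cell lines, the B lineage line IVA12 and the T lymphoma line EL4. The samples were suspensions that mixed both lines with the human T cell lines Jurkat and TALL-104, untreated by any label, and were profiled by single-cell RNA-seq with 3 Chromium kits. The 3′ v2 and 3′ v3 kits count mRNA from its 3′ end and the 5′ v1 kit from its 5′ end, with a unique molecular identifier (UMI) for each captured molecule. Of 8 libraries, 7 were used, 1 of 3′ v2 (replicate 2), 2 of 5′ v1 and 4 of 3′ v3, with 24790710 to 251164949 UMIs each. The other 3′ v2 library, replicate 1, was not analysed here.

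Barcodes with at least 1000 UMIs, over 80% of them from mouse genes, were taken as mouse cells. A cell was called EL4 if its summed UMIs of Lgals1, S100a6 and Perp were at least 5 times those of Epcam, Cd24a, Ctss and Ckap4, and IVA12 in the reverse case. None of the 10 factors took part in this choice. It gave 10905 EL4 cells and 5829 IVA12 cells, with 166 to 1937 IVA12 cells in a library, and left 0.922% to 12.3% of the mouse cells of a library in neither line. IVA12 is a mouse hybridoma line, the product of fusing a B cell with a myeloma cell, so it can hold mRNA of both an activated B cell and a plasma cell tumour. Each line is a single established line, and the libraries of a kit shared cell suspensions (2 suspensions, called F and G, in 3′ v3, and 1 in each other kit), so the spread between libraries may be largely technical and covers no second B or T cell line.

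As background, B cell development is built up by factors in sequence. Spi1 (PU.1) and Ikaros family factors act in early progenitors, Ebf1 then specifies the B lineage, and Pax5 commits cells to it and switches on genes such as Cd79a. Irf8, Spib and Bach2 act in mature B cells, Bcl6 is the repressor that maintains the germinal centre state, and Pou2af1 (OBF-1) is a coactivator of the octamer factors at immunoglobulin promoters. On the way to plasma cells, high Irf4 and Prdm1 (Blimp-1) shut down Pax5, Bcl6 and Bach2. Ikzf3 (Aiolos) is an Ikaros family member of mature lymphocytes, in B and T cells alike.

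The markers of the lines were checked first. The 15 listed T cell markers summed to 2304 to 3214 UMIs per 1000000 UMIs (CPM) in EL4 and to 21.4 to 76.4 CPM in IVA12, with Cd8a at 0 UMIs in both lines and Cd4 at 17 UMIs in EL4 and 0 in IVA12. The 19 listed plasma cell genes summed to 3654 to 7963 CPM in IVA12 and to 463 to 818 CPM in EL4. Cd79a, a defining B cell gene that encodes a chain of the B cell receptor, had 31 UMIs among the 153299824 UMIs of IVA12. In EL4 it had 46 UMIs among 242684834, and the median over libraries was 0.245 CPM in IVA12 and 0.210 CPM in EL4. The 24 listed B cell genes summed to 646 to 766 CPM in IVA12 and to 42.1 to 85.6 CPM in EL4. Of all called cells, 28 barcodes occurred in more than 1 library. In 3′ v2, 45.8% of the IVA12 cells had over 10% mitochondrial UMIs, against 4.19% to 16.9% in the other libraries.

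The question of the main comparison was which of the factors differed between a B lineage and a T lineage line over the 3 kits. UMIs were summed per library and line, and the 14 sums were tested with edgeR's quasi-likelihood test with the library as a block and Benjamini-Hochberg adjustment over 11734 mouse genes. Of the 10 factors, 9 passed the filter on low counts, and all 9 differed at adjusted p under 0.05: Pou2af1, Irf4, Spi1, Ebf1 and Bcl6 were higher in IVA12, and Ikzf3, Irf8, Spib and Pax5 were higher in EL4. The lines differed at most genes, with 37.9% of all tested genes higher and 39% lower in IVA12, so the count of 9 says little by itself, and the sizes and per-library levels below carry the description. The CPM of the lines did not overlap over the 7 libraries for 4 factors higher in IVA12 (Pou2af1, Irf4, Spi1 and Ebf1) and for 2 higher in EL4 (Ikzf3 and Irf8). Among all tested genes, 18.3% and 16.1% had such separate ranges.

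**Figure D1:**
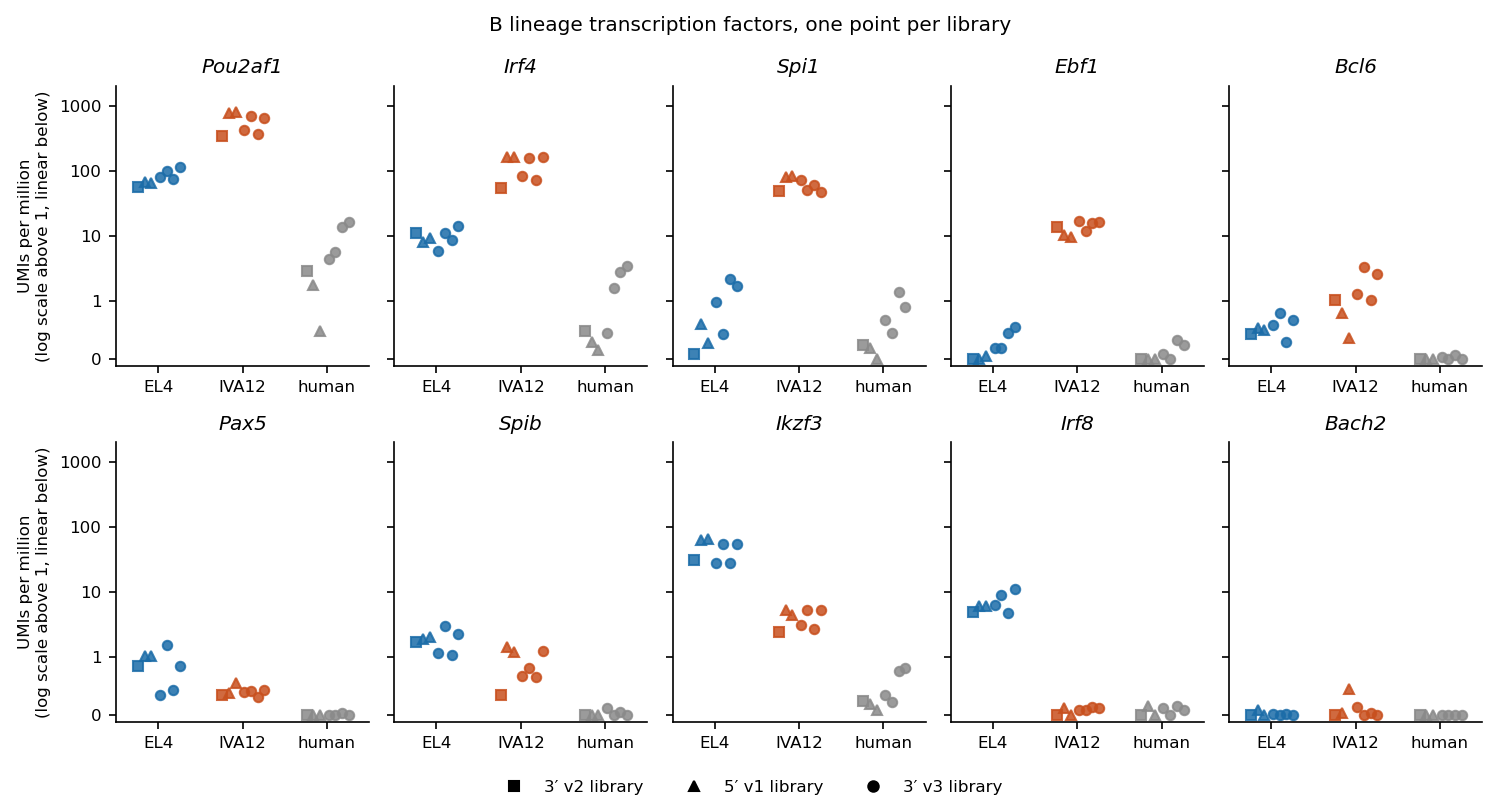
Level of each of the 10 factors in EL4, IVA12 and human cells, 1 point per library, in CPM on an axis that is logarithmic above 1 and linear below, with symbols for the kit. Pou2af1, Irf4, Spi1 and Ebf1 lie higher in IVA12 in every library and Ikzf3 and Irf8 higher in EL4, while Pax5, Spib and Bcl6 lie near 1 in both lines and Bach2 near 0.

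Pou2af1, the octamer coactivator, was measured at 344 CPM in the 3′ v2 library of IVA12, at 771 and 792 CPM in 5′ v1 and at 423, 683, 369 and 648 CPM in 3′ v3 replicates 1 to 4. In EL4 it ranged from 55.2 to 114 CPM, with a median of 74.1 CPM. Every IVA12 library was above every EL4 library, and the fitted difference was a log2 fold of 2.73 ± 0.17 (SE, adjusted p = 1.38e-07 by edgeR's quasi-likelihood test). EL4 was not free of it: in each of the 7 libraries its Pou2af1 level was above that in human cells, which was 0.476 to 16.5 CPM and is given as the background of mouse UMIs in cells that lack the gene.

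Irf4, the factor that drives plasma cell differentiation at high level, was at 54.5 CPM in IVA12 in 3′ v2, at 162 CPM in each 5′ v1 library and at 82.1, 156, 70.9 and 163 CPM in 3′ v3 replicates 1 to 4. Its EL4 levels were 5.89 to 14.2 CPM with a median of 9.33 CPM, all above the 0.159 to 3.47 CPM in human cells. The lines did not overlap, and the log2 fold was 3.49 ± 0.23 (SE, adjusted p = 2.10e-07, edgeR). Within IVA12 the libraries formed a high set of 156 to 163 CPM and a low set of 54.5 to 82.1 CPM, which followed the kit and the suspension as described further on.

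Spi1, which encodes PU.1 and is a factor of B cells and myeloid cells that T cells normally switch off, ranged from 47.5 to 84.1 CPM in IVA12 with a median of 60.6 CPM. In EL4 it ranged from 0.0848 to 2.16 CPM, against 0 to 1.38 CPM in human cells, and was above human cells in 5 of 7 libraries. The log2 fold was 5.96 ± 0.38 (SE, adjusted p = 2.00e-07, edgeR), and it ran from 5.56 to 6.56 over the alternatives. Summed over libraries, Spi1 had 9821 UMIs in IVA12 and 317 in EL4, a ratio of 49.0 per UMI sequenced (exact 95% interval 43.9 to 55.02, counting error only). Of the 317 EL4 UMIs 175 came from 3′ v3 replicate 3, and without that library the ratio was 75.2. By library the ratio ran from 27.8 to 310.3 in the 6 libraries with more than 3 Spi1 UMIs in EL4, a spread far wider than the counting interval.

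Ebf1, the factor that specifies the B lineage, ranged from 9.73 to 16.6 CPM in IVA12 with a median of 13.8 CPM. In EL4 it was at 0 in the 3′ v2 library and in replicate 1 of 5′ v1, at 1 UMI in replicate 2 of 5′ v1, and at 0.180 to 0.543 CPM in 3′ v3. Human cells had 0 to 0.316 CPM, and EL4 was above them in 5 of 7 libraries. In replicate 2 of 5′ v1 and replicate 2 of 3′ v3 this rested on 1 and 3 UMIs in EL4, or 0.0542 and 0.182 CPM. Human cells had 0 UMIs there, where the floor of 3 counts is 0.238 and 0.675 CPM, above those EL4 levels. The fitted log2 fold was 5.83 ± 0.36 (SE, adjusted p = 1.55e-07, edgeR), and it ran from 5.56 to 6.76 over the alternatives. Since EL4 was at 0 in 2 libraries, the fold there is a lower bound set by 3 counts in that library: Ebf1 was at least 54.2-fold higher in IVA12 in 3′ v2 and at least 110-fold higher in replicate 1 of 5′ v1. Ebf1 and Spi1 were thus both present in a line with 58 Pax5 UMIs and 31 Cd79a UMIs over all libraries, against 170 and 46 in EL4.

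The low levels of the line that lacks a factor were set beside those of other genes that mark the opposite line. In EL4, Spi1 was at 0.177% to 3.59% of its IVA12 level by library and Ebf1 at 0% to 3.31%. Over 4 plasma and B cell genes, Jchain, Mzb1, Cd79b and Ms4a1, the EL4 level was 0% to 3.74% of that in IVA12. Spi1 and Ebf1 in EL4 therefore lay within the range of these genes. Irf4 at 4.98% to 20.4% and Pou2af1 at 8.22% to 20.05% lay above it in every library. The 4 genes were picked by hand, so the range depends on that choice. Other genes of their lists had more in EL4. Xbp1 was at a mean of 45.5 CPM there against 285 CPM in IVA12, and Tnfrsf13b at 31.7 against 76.3 CPM.

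Among the factors higher in EL4, Ikzf3 (Aiolos) ranged from 27.6 to 65.5 CPM in EL4 with a median of 54.0 CPM, and from 2.42 to 5.39 CPM in IVA12 with a median of 4.46 CPM. The ranges did not overlap, and the log2 fold of IVA12 against EL4 was −3.53 ± 0.12 (SE, adjusted p = 6.28e-09, edgeR). IVA12 kept a measurable level, at 6.80% to 11.03% of EL4 by library, and above human cells in 7 of 7 libraries. The T cell genes Lat, Thy1, Cd3d and Cd3g were at 0.0369% to 2.56% of EL4. These were the tested T cell markers of highest level, so the range depends on that choice. Cd2, another marker of that list, was at a mean of 14.6 CPM in IVA12 against 19.1 CPM in EL4. In EL4 Ikzf3 was found at 27.6 and 28.0 CPM in the 3′ v3 libraries of suspension F. In those of suspension G it was at 54.0 and 54.7 CPM.

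Irf8, an interferon regulatory factor of B cells, dendritic cells and macrophages, was an EL4 gene in these data. It ranged from 4.85 to 11.2 CPM in EL4 with a median of 6.12 CPM. In IVA12 it was at 0 in 2 libraries and reached at most 0.143 CPM, within the 0 to 0.158 CPM of human cells. The fitted log2 fold was −5.99 ± 0.27 (SE, adjusted p = 2.27e-08, edgeR). Over all libraries EL4 held 1622 Irf8 UMIs and IVA12 17, a ratio of 60.3 (exact 95% interval 37.5 to 103.7, counting error only), and against the floor of 3 counts per library Irf8 was at least 4.83-fold higher in EL4 in 3′ v2 and at least 22.1-fold higher in replicate 2 of 5′ v1.

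The remaining 4 factors were scarce in both lines, and their CPM ranges overlapped. Pax5, the commitment factor, had 58 UMIs in all IVA12 cells and 170 in all EL4 cells. It lay at 0.305 to 0.546 CPM in IVA12 and at 0.337 to 1.52 CPM in EL4, with 0 to 0.0287 CPM in human cells, and its log2 fold was −0.99 ± 0.27 (SE, adjusted p = 0.00675, edgeR). This difference was not past the threshold with suspension F alone in 3′ v3 (adjusted p = 0.0571). Over its alternatives the adjusted p of Pax5 ranged from 0.00235 to 0.0571.

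Spib, a relative of PU.1 found in B cells and plasmacytoid dendritic cells, lay at 0.345 to 1.42 CPM in IVA12 and at 1.08 to 3.03 CPM in EL4, with a log2 fold of −1.001 ± 0.208 (SE, adjusted p = 0.00125, edgeR). Bcl6, the germinal centre repressor, went the other way, from 0.364 to 3.26 CPM in IVA12 and from 0.284 to 0.788 CPM in EL4, with a log2 fold of 1.30 ± 0.30 (SE, adjusted p = 0.00230, edgeR). With suspension F alone in 3′ v3 the log2 fold of Bcl6 was 0.92 and was not past the threshold (adjusted p = 0.0514). Bach2, which restrains plasma cell differentiation, had 11 UMIs in IVA12 and 5 in EL4 over all libraries and did not pass the filter on low counts. Its ratio of IVA12 to EL4, summed over libraries, was 3.48 (exact 95% interval 1.12 to 12.8, counting error only), with 5 of the 11 UMIs in replicate 2 of 5′ v1. The ratio was 1.89 without that library and 8.15 without replicate 1 of 5′ v1, and without the filter it did not pass the test over the libraries (log2 fold 1.47 ± 0.96 SE, adjusted p = 0.230, edgeR).

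**Figure D2:**
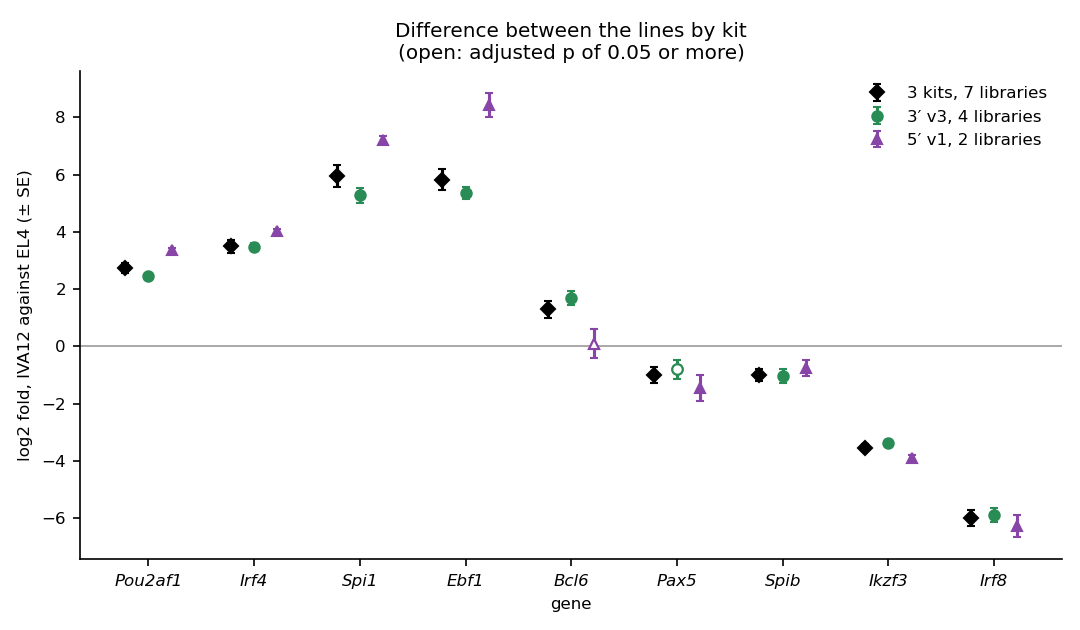
Log2 fold of each tested factor in IVA12 against EL4 with its standard error, over 3 kits (7 libraries), within 3′ v3 (4 libraries) and within 5′ v1 (2 libraries), where open symbols mark an adjusted p of 0.05 or more. Spi1 and Ebf1 reach 7.203 and 8.43 in 5′ v1, and Bcl6 is near 0 there, at 0.10. For Ebf1 the EL4 cells of 5′ v1 had 0 and 1 UMI in replicates 1 and 2.

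The share of cells with a UMI of a factor depends on depth, so each cell was also thinned to 5000 mouse UMIs, leaving out shallower cells. Pou2af1 was found in 79.5% to 99.1% of the IVA12 cells of a library at full depth, and in 72.7% to 95.3% after thinning. In EL4 the thinned share was 24.1% to 38.1%. Irf4 was found in 19.5% to 48.0% of the thinned IVA12 cells and in 2.68% to 5.25% of the EL4 cells, Spi1 in 19.7% to 33.3% and 0.0380% to 0.827%, and Ebf1 in 4.60% to 8.36% and 0% to 0.150%. For all 4, every IVA12 library lay above every EL4 library after thinning. Their CPM ranges were already separate in the same libraries, so this is no further support. How many of all genes have such separate shares was not counted. At full depth the share separated the lines for 3 of these 4 factors. The lowest Pou2af1 share in IVA12 (79.5%, in 3′ v2) was below the highest in EL4 (82.1%). Without cells of over 10% mitochondrial UMIs, the Pou2af1 share of that IVA12 library was 95.6%, the lowest in IVA12 was 94.6% and the highest in EL4 was 84.8%, so the lines separated at full depth too.

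Ikzf3 was found in 13.1% to 28.2% of the thinned EL4 cells and in 1.51% to 2.90% of the IVA12 cells, and Irf8 in 2.40% to 5.65% and 0% to 0.124%. At full depth Ikzf3 was found in 33.8% to 74.4% of EL4 cells by library, and in 0.144% to 1.15% of human cells. The shares of human cells with a UMI at full depth were 0.866% to 18.2% for Pou2af1 and 0.289% to 4.07% for Irf4, against 60.3% to 82.1% and 11.2% to 22.8% of EL4 cells. Human cells had median depths of 4351 to 18053 UMIs and EL4 cells of 22532 to 27847 UMIs. The shares are descriptions without a test. Irf8 had a UMI in 0 of 166 IVA12 cells in 3′ v2, and a count of 0 allows up to 1.81% of cells with a UMI (3 cells of 166, counting error only).

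Shares were then set beside those that the same CPM would give if the UMIs were spread evenly over the thinned cells. The observed share of Irf4 minus the even share was −13.0 to −4.06 percentage points in IVA12, below 0 in 7 of 7 libraries, and that of Pou2af1 was −9.36 to −2.36 points. For Spi1 the difference was −1.63 to −0.34 points, and for Ebf1 −0.69 to 0.82 points. In the 3 libraries where Irf4 had even shares as low as those of Spi1 (23.9%, 33.7% and 29.8%), it was found in 19.5%, 28.3% and 25.8% of the cells. Whether its UMIs lay in fewer cells or its level changed with the depth of a cell was not tested. Ikzf3 in EL4 differed from the even share by −0.92 to 0.95 points.

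**Figure D3:**
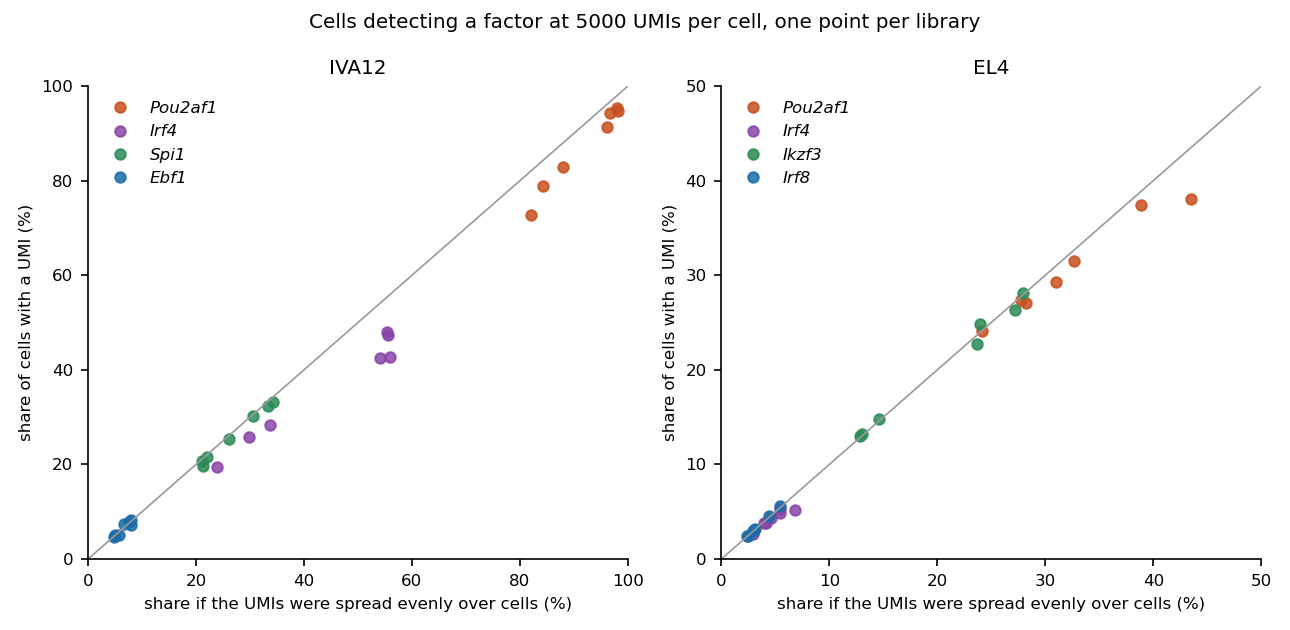
Share of cells with a UMI of a factor at 5000 UMIs per cell (y axis, percent) against the share expected if the factor's UMIs were spread evenly over cells (x axis, percent), 1 point per library, in IVA12 and EL4, with a line of equality. Irf4 in IVA12 lies below the line in all 7 libraries, at 42.4% against an even 54.1% in replicate 2 of 3′ v3, while Spi1 and Ebf1 lie close to it.

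Factors were also found together in single IVA12 cells. Spi1 and Irf4 were both detected in 24.7% of the IVA12 cells in 3′ v2, in 63.6% and 66.4% in 5′ v1 and in 55.7%, 52.2%, 51.4% and 50.5% in 3′ v3 replicates 1 to 4. In each library this was more than the product of both shares, which was 19.0% in 3′ v2 and 44.1% to 63.3% elsewhere, at full depth, where deeper cells raise both. Pou2af1 and Irf4 were both found in 39.8% to 80.7% of IVA12 cells. The median IVA12 cell had UMIs of 2 of the 10 factors in 3′ v2 and of 3 in every other library. Such shares are of cells of 1 line at unequal depth and were not tested.

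Within 3′ v3 and within 5′ v1, the 9 tested factors had the sign they had over the 3 kits, though that of Bcl6 in 5′ v1 turned with DESeq2 (−0.066) and when cells were assigned to a line at 20 times in place of 5 (−0.007). In 3′ v3, 5 of the 9 tested factors were higher and 3 lower in IVA12 (39.1% and 40.1% of all tested genes), and Pax5 missed the threshold at a log2 fold of −0.80 ± 0.34 (SE, adjusted p = 0.0617, edgeR). In 5′ v1, with 2 libraries of 1 suspension, 4 factors were higher and 4 lower (42.8% and 42.3% of all tested genes). Bcl6 did not pass there, at 0.10 ± 0.49 (SE, adjusted p = 0.855, edgeR). The log2 fold of Pou2af1 was 2.45 ± 0.09 with the 3′ v3 kit and 3.36 ± 0.08 with 5′ v1, and that of Irf4 was 3.47 ± 0.14 and 4.03 ± 0.09 (SE). In the single 3′ v2 library, with no replicate check, Pou2af1 was at 344 CPM in IVA12 and 55.2 CPM in EL4, and Irf4 at 54.5 and 11.1 CPM.

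Whether the difference between the lines itself differed between 3′ v3 and 5′ v1 was tested as an interaction. It passed for 5 of the 9 factors, against 35.6% of all tested genes in either direction. The difference was smaller in 3′ v3 for Pou2af1 (log2 −0.94 ± 0.14 SE, adjusted p = 0.00110, edgeR), Spi1 (−2.01 ± 0.62, adjusted p = 0.0340) and Ebf1 (−3.19 ± 1.098, adjusted p = 0.0493), less negative for Ikzf3 (0.51 ± 0.14, adjusted p = 0.0225) and larger for Bcl6 (1.58 ± 0.50, adjusted p = 0.0372). In EL4 of 5′ v1, Ebf1 was at 0 and 1 UMI and Spi1 at 19 and 5 UMIs. Spi1 in IVA12 was at 80.9 and 84.1 CPM in 5′ v1 and at 47.5 to 73.2 CPM in 3′ v3. Ebf1 in IVA12 was at 10.4 and 9.73 CPM in 5′ v1 and at 11.99 to 16.6 CPM in 3′ v3, so not lower in 3′ v3. In EL4 of 3′ v3, Ebf1 had 8, 3, 36 and 21 UMIs in replicates 1 to 4. The smaller Ebf1 difference in 3′ v3 therefore lay on the EL4 side, at these few UMIs. Which level the interaction of Spi1 rests on was not tested. The Ebf1 value was −1.84 without replicate 1 and −5.85 without replicate 2 of 5′ v1, so its size rests on single libraries. It passed in 1 of the 7 fits that left out 1 library, that without 3′ v3 replicate 1 (adjusted p = 0.0148, edgeR). Of the 5 calls, that of Pou2af1 passed under all 16 alternatives run. With DESeq2 only Pou2af1 and Spi1 passed, with a minimum of 5000 UMIs Spi1 (adjusted p = 0.0509, edgeR) and Ebf1 (0.0614) did not, and with total-UMI scaling Ikzf3 did not (0.0580). Irf4 did not pass (−0.59 ± 0.22, adjusted p = 0.0643). Leaving out 1 library gave from 1 to 6 factors past the threshold, with 2 without replicate 1 and 1 without replicate 2 of 5′ v1, and 3, 2 and 3 without 3′ v3 replicates 2, 3 and 4. Over all genes 1799 were higher and 2383 lower in 3′ v3, and 1326 and 3020 when sums were scaled by total mouse UMIs without TMM.

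Within IVA12, the factors were next compared between 3′ v3 and 5′ v1 directly. Of 8 tested factors, 0 passed the threshold with edgeR, against 9.06% of all tested genes in either direction. At an unadjusted p under 0.05 there were 3, Pou2af1, Ebf1 and Bcl6, against 27.5% of all tested genes, and DESeq2 called 1, Bcl6, against 12.2%. The largest of these differences was for Bcl6, at a log2 fold of 1.64 ± 0.54 (SE, adjusted p = 0.104, edgeR). With suspension F alone as the 3′ v3 sample 5 factors passed, and with suspension G alone 4, where 58.4% and 66.6% of all tested genes did.

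**Figure D4:**
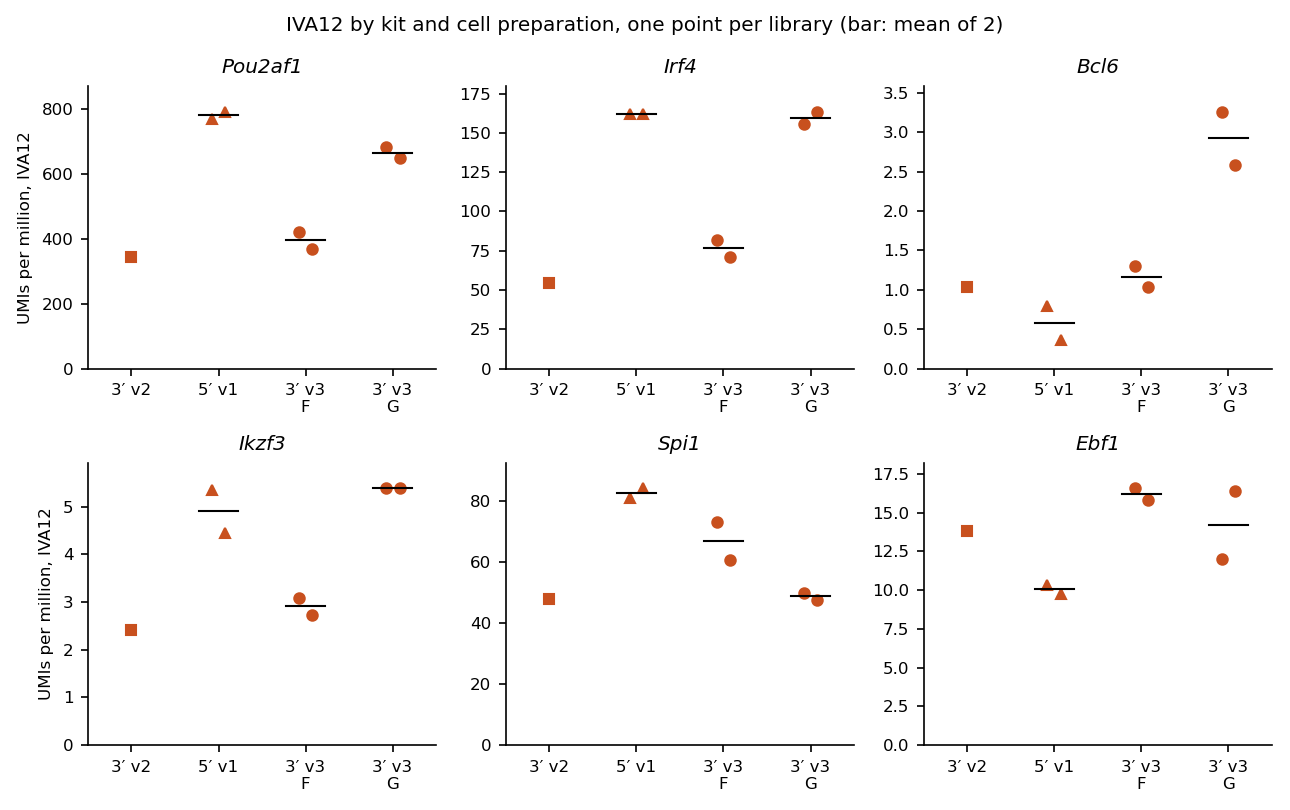
IVA12 level of 6 factors in CPM, 1 point per library, by kit and, within 3′ v3, by cell suspension (F or G), with a bar at the mean of 2 libraries. Irf4 lies at 70.9 and 82.1 in suspension F and at 156 and 163 in G, near the 162 of 5′ v1, whereas Spi1 is higher in F.

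That contrast between suspensions was fitted after the levels by library had been seen. Within IVA12 in 3′ v3, suspension F (replicates 1 and 3) was set against G (replicates 2 and 4), and 6 of 7 tested factors differed, against 67.5% of all tested genes in either direction. F and G were 1 suspension each. The test therefore sets their difference against the spread between libraries of a suspension, not against the spread between suspensions. Irf4 was at 76.5 ± 7.95 CPM in F and at 159.6 ± 5.46 CPM in G (SD, n = 2 each), a log2 fold of −0.82 ± 0.08 (SE, adjusted p = 1.90e-05, edgeR). Pou2af1 was lower in F at −0.51 ± 0.08, Ikzf3 at −0.67 ± 0.16 and Bcl6 at −1.09 ± 0.25. Spi1 was higher in F, at 66.9 ± 8.90 against 48.7 ± 1.66 CPM (SD, n = 2 each) and a log2 fold of 0.70 ± 0.10, and so was Ebf1, at 0.39 ± 0.13. The log2 folds of this contrast are after TMM scaling, which the CPM are not. No fit scaled by total UMIs was run for it. Ebf1 was at 16.6 and 15.8 CPM in F and at 11.99 and 16.4 CPM in G, so its libraries overlapped and replicate 2 of G alone was low.

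Irf4 and Spi1 thus differed in opposite directions between suspensions F and G of the same line, made with the same kit, by values from 1 suspension each. Over 10% mitochondrial UMIs were found in 15.7% and 16.2% of the IVA12 cells of F and in 4.19% and 16.9% of those of G, and with such cells left out Ebf1 was no longer past the threshold (adjusted p = 0.0795). Kit, suspension and date of preparation cannot be told apart for 3′ v2 and 5′ v1, which had 1 suspension each.

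Other lists of genes give the surroundings of the factors. In each, the 4 tested genes of highest level are named, and any other gene was named after its values were seen. The counts below stand beside 37.9% higher and 39% lower over all tested genes. Of 18 tested genes of the plasma cell program, 16 were higher and 2 lower in IVA12, with a median log2 fold of 2.76, against −0.0044 over all tested genes. Those of highest level were Jchain, the joining chain of secreted antibody (log2 fold 6.68, from 35.9 ± 31.8 to 2878 ± 1092 CPM, SD, n = 7), Mzb1, a chaperone of antibody assembly (6.61), Sec11c, a signal peptidase subunit (0.27), and Xbp1, the secretory factor (2.60). Prdm1, the Blimp-1 gene, named after its values were seen, was higher in IVA12 at 4.35 ± 0.19 (SE, adjusted p = 1.90e-08, edgeR), with 27.8 to 60.2 CPM. The 2 lower genes, also named after their values were seen, were Cd28, a costimulatory receptor that T cells also carry and that the T cell list holds too, and Cd93, a surface receptor of early B cells and plasma cells.

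Of 24 genes known to be switched on by Pax5 and Ebf1, 11 passed the filter on low counts, and 8 of these were higher and 2 lower in IVA12. Some passed only through IVA12, where they were high, such as Cplx2 at a mean of 4.22 CPM against 0.0432 CPM in EL4, so the count is no measure of the whole list. The 4 of highest level were Cd79b, a chain of the B cell receptor (6.27 ± 0.47 SE), Ms4a1, which encodes CD20 (6.61 ± 0.44), Blnk, the adaptor of the receptor (6.05 ± 0.46), and Tnfrsf13b, the receptor TACI (1.23 ± 0.12). The list was split within itself: Cd79b was at 216 to 353 CPM and Ms4a1 at 141 to 168 CPM in IVA12, while Blk, Igll1, Cd83 and Vpreb2 had 0 UMIs there. Named after their values were seen, Cd22, an inhibitory receptor of B cells, and Cd37, a tetraspanin, were lower in IVA12, and Bank1 did not pass (0.42 ± 0.18, adjusted p = 0.0557, edgeR).

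Of 4 tested MHC class II genes, Cd74 (5.72) and H2-DMa (2.78) were higher and H2-Oa (−6.21) and H2-Eb1 (−2.07) lower in IVA12, on the log2 scale. Their regulator Ciita had 7 UMIs in IVA12 and 71 in EL4 and was not tested.

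Among 29 tested other transcription factors of lymphocytes, 9 were higher and 18 lower in IVA12, with a median log2 fold of −0.53. Ikzf1 (Ikaros), the founder of the family of Ikzf3, was lower in IVA12 at −2.15 ± 0.08 (SE), with 90.1 ± 16.7 against 377 ± 87.7 CPM (SD, n = 7). Ikzf2 (Helios), another member, was lower at −7.68 ± 0.46. Pou2f2 (Oct-2), a DNA-binding partner of Pou2af1, was lower at −1.22 ± 0.11, with 142 ± 51.2 CPM in IVA12 and 313 ± 121 CPM in EL4 (SD, n = 7). Another partner, Pou2f1 (Oct-1), named after its values were seen, was higher at 0.62 ± 0.07, with 42.2 ± 18.6 CPM in IVA12 and 26.2 ± 13.0 CPM in EL4 (SD, n = 7). Myc was higher at 2.14 ± 0.16. Named after their values were seen, Mef2c (6.63) and Tcf4 (6.55), factors of B and plasmacytoid cells, were higher too, and Tcf3, which encodes E2A, did not differ past the threshold (−0.05 ± 0.08, adjusted p = 0.541, edgeR).

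Of 10 tested T lineage factors, 6 were lower and 4 higher in IVA12. Tcf7, Tox, Bcl11b and Gata3, factors of T cell development, were lower at −6.95, −7.14, −7.20 and −6.83 on the log2 scale. The 4 higher genes, named after their values were seen, were Notch1 (5.63), Satb1 (5.43), Hes1 (4.55) and Zbtb7b (0.76). Notch1, the receptor that drives T lineage choice, was at 27.6 to 73.4 CPM in IVA12 and at 0 to 2.02 CPM in EL4.

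All 12 tested T cell markers were lower in IVA12, among them Lat (−7.20), Thy1 (−7.27), Cd3d (−7.48) and Cd3g (−6.39). Of 17 myeloid and dendritic markers, listed because Spi1 and Irf8 also act in those cells, 5 were tested: Fcer1g (−6.90), Lyz2 (−5.16), Flt3 (−0.41) and, named after its values were seen, Itgam (−3.54) were lower and Cd68 (3.28), a lysosomal protein, was higher in IVA12. Fcer1g had a mean of 48.9 CPM in EL4 and 0.446 CPM in IVA12. Lyz2 and Itgam were scarce in both lines, at means of 1.53 and 1.34 CPM in EL4 and 0.0154 and 0.143 CPM in IVA12. The 17 summed to 15.7 to 43.8 CPM in IVA12 and to 22.6 to 108 CPM in EL4. In IVA12 7 of them, among them Itgax, Adgre1 and S100a8, had 0 UMIs.

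**Figure D5:**
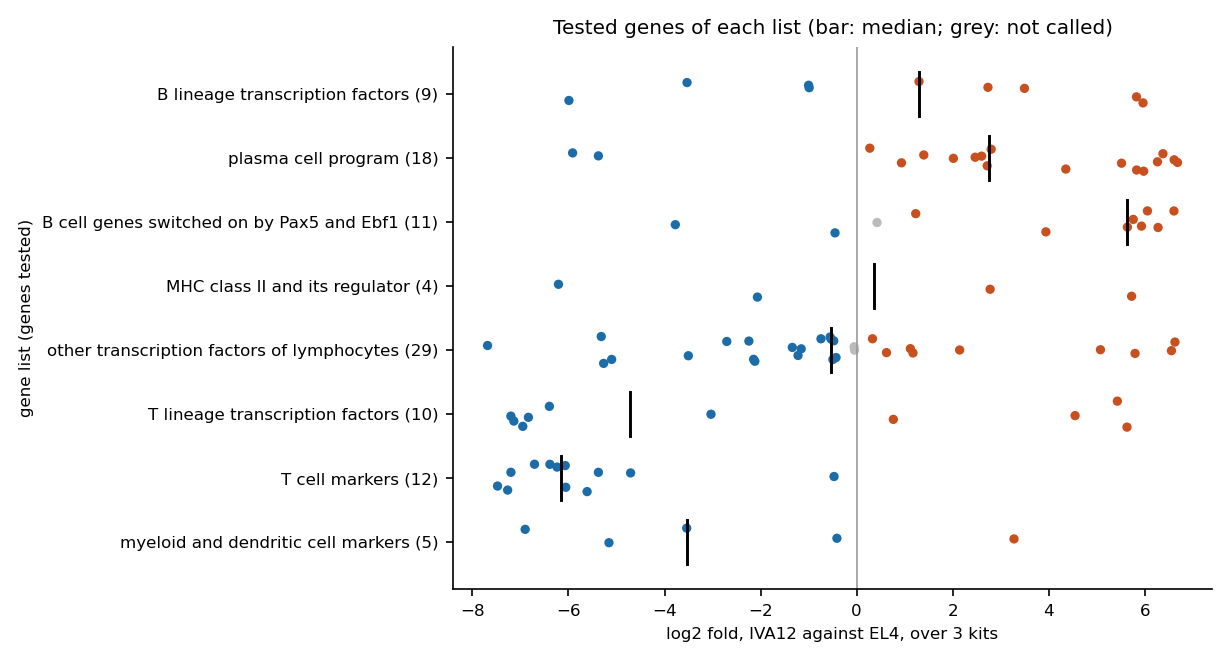
Log2 fold of IVA12 against EL4 over 3 kits for each tested gene of 8 lists, 1 point per gene, colored by the line in which it was higher (grey where not past the threshold), with a bar at the median of the list. The 9 factors run from −5.99 to 5.96 with a median of 1.30, between the plasma cell program at 2.76 and the T cell markers at −6.15.

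For the 3 factors of highest mean CPM in IVA12, the genes with the closest levels over the 14 sums were found among 11734 genes. Closeness was the root mean square difference of log2(CPM + 1). Nearest to Pou2af1 were Mcl1 (0.46), Creg1 (0.62) and Rpn2 (0.63), to Irf4 Bscl2 (0.52), Stard5 (0.63) and Tpst1 (0.65), and to Spi1 Ifi44 (0.19), Ly86 (0.24) and Alpl (0.27), all on the log2 scale. Ly86, which encodes the MD-1 protein of B cells and myeloid cells, had a mean of 64.8 CPM in IVA12 and 0.718 CPM in EL4. Spi1 had 63.5 and 0.891 CPM. The genes were chosen for such closeness, so it is no sign of a link between them.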

How the data were processed

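Deposited values were raw UMI counts per gene and barcode, 1 matrix for each of 7 libraries (60736 genes, 27998 of mouse). The authors had downsampled the reads with seqtk, then ran Cell Ranger 3.0.2 with STAR for alignment and counting on a combined hg19 and mm10 reference, keeping all barcodes. No mouse annotation or sequence was used here, so no locations are given. Suspensions F and G of 3′ v3 were taken from the study's sample table.

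Cells were called as stated in the report. UMIs were summed per library and line and tested with the quasi-likelihood test of edgeR 4.0.16 after TMM scaling and filterByExpr, with the library as a block in every comparison between lines, and Benjamini-Hochberg adjustment at 0.05 over all mouse genes tested. Both lines came from the same libraries, so the block pairs them. Standard errors are the log2 fold divided by the square root of F. The analysis was tested on simulated data. CPM are UMIs per 1000000 mouse UMIs of a line (of all UMIs in human cells). Thinned shares are exact expectations after drawing 5000 UMIs. Replicate numbers follow accession order and pair nothing across kits. Intervals (exact, 95%) and floors of 3 counts cover counting error only. Doublets were treated only by the species and gate rules and by an alternative without barcodes over 3 times the median UMIs.

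The genes, lists and rules were chosen with earlier results of these data known. In each list other than the factors, the 4 tested genes with the largest mean CPM in either line were named, and others are marked as named after their values were seen. Symbols that were not in the reference were left out. Alternatives were DESeq2 1.42.0, other scalings, filters, gates, limits of depth and mitochondrial share, and leaving out libraries.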

Additional observations from a re-analysis of the deposited data

Results flagged for a closer look

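In the 4 libraries of 3′ v3, 1 of 20 groups of values (10 factors in 2 lines) had a library far from the others, and the 95% critical value used flags about 1 in 20 groups by chance. It was Ebf1 in IVA12 of replicate 2, at 11.99 CPM, against 15.8 to 16.6 CPM in the other libraries.

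For 5 factors, the difference between IVA12 and EL4 differed between 3′ v3 and 5′ v1 by the interaction test. On the log2 scale, 3′ v3 minus 5′ v1, this was −2.01 for Spi1, −0.94 for Pou2af1, −3.19 for Ebf1, 0.51 for Ikzf3 and 1.58 for Bcl6. The value of Ebf1 ranged from −5.85 to −1.84 leaving out 1 library. Of the 16 alternatives run, the call held in 16 for Pou2af1, 13 for Ikzf3, 11 for Spi1, 9 for Bcl6 and 6 for Ebf1. The 5′ v1 libraries came from 1 suspension, so kit and suspension cannot be told apart.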

How the results depend on the processing

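Over 3 kits, 166 values of the 9 tested factors under other settings had the direction of the main result, and 164 stayed on its side of the threshold. Pax5 (adjusted p = 0.0571) and Bcl6 (0.0514) did not with suspension F alone. Leaving out 1 library gave 5 factors higher and 3 to 4 lower, since Pax5 failed the filter without 3′ v3 replicate 4 or 5′ v1 replicate 1, as it did with the mitochondrial limit and both other gates. The fits without 1 library called 74.2% to 76.9% of all tested genes in either direction. Without the library block, 3379 genes were higher and 3565 lower, against 4453 and 4581 with it, and the 5 higher and 4 lower factors stood. Within 3′ v3, leaving out 1 library gave 5 higher, where 74.4% to 76.3% of all tested genes passed in either direction. No library was left out within 5′ v1, which has 2.

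The interaction passed for 5 factors, for 2 with DESeq2, 3 with a minimum of 5000 UMIs, and 1 to 6 leaving out 1 library, where 29.1%, 35.3% and 13.8% to 37.6% of all genes passed. The kit difference within IVA12 passed for 0 factors, 1 with DESeq2, 5 with suspension F alone, 4 with G alone, and 0 leaving out any library. Over all genes it had 1137 calls, 7152 with F alone, 7704 with G alone, 17 and 44 without 5′ v1 replicates 1 and 2, and 657 and 731 without 3′ v3 replicates 2 and 4. The interaction had 4182 calls and 1777 and 1633 without 5′ v1 replicates 1 and 2. Scaling by total UMIs moved the median log2 fold of all genes from 0.0066 to 0.216 within 5′ v1, where Spib then missed the threshold (adjusted p = 0.0716). In the interaction it moved it from −0.021 to −0.140, where Irf4 then passed (adjusted p = 0.0290) and Ikzf3 did not (0.0580). The cause was not tested.

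Values not past the threshold reversed in 6 cases: Bcl6 within 5′ v1 (−0.066 with DESeq2, −0.007 with a gate of 20 times), Irf8 in the interaction (−0.29 with G alone, −0.14 without 5′ v1 replicate 2, −0.15 without 3′ v3 replicate 3, with a range of −0.15 to 4.58 leaving out 1 library) and Pax5 by kit (0.0402 without 5′ v1 replicate 2, with a range of −0.181 to 0.0402). In the lists, 1 gene of the Pax5 and Ebf1 list was lower without the block, where 59.2% of all tested genes passed in either direction. With no filter 5 MHC class II genes were higher and 4 lower and 5 myeloid genes higher, where 56.1% of all tested genes passed. With G alone 2 myeloid genes were lower, where 71.2% of all tested genes passed. Factors under about 1 CPM rest on few UMIs, which limits Pax5, Spib, Bcl6 and Bach2.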

Other observations

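EL4 was not fitted between the suspensions of 3′ v3, and its levels are given here as values. In suspension F against G (mean ± SD, n = 2 each), Ikzf3 was at 27.8 ± 0.290 against 54.3 ± 0.442 CPM, Irf8 at 5.60 ± 1.07 against 10.1 ± 1.53 CPM, Spib at 1.12 ± 0.0654 against 2.64 ± 0.554 CPM and Pax5 at 0.385 ± 0.0677 against 1.18 ± 0.469 CPM. Irf4, at 7.195 ± 1.85 against 12.7 ± 2.17 CPM, and Pou2af1, at 76.6 ± 3.59 against 106.3 ± 11.3 CPM, were also lower in F, as in IVA12. The libraries of F also held more EL4 cells under 5000 UMIs, 478 and 1355 in replicates 1 and 3, against 77 and 111 in replicates 2 and 4. Among EL4 cells of at least 5000 UMIs, Ikzf3 was at 28.2 and 27.9 CPM in F. No test was run on these values.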
